A study of Mus musculus with 26 samples.

Results

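RNA polymerase II (Pol II) over mouse gene bodies was compared between 8 h and 3 h after partial hepatectomy, to see which genes left the wave of the first hours, which kept it and which came back up. The comparison covered the 4055 genes, of 21133 measured, whose Pol II signal exceeded 0.5 per bp in the 8 h or the 3 h library. The study used ChIP-seq, in which DNA is precipitated together with 1 chosen protein and sequenced. Its 26 samples came from wild-type male C57BL6/J mice, 7 weeks old, from which 3 of 5 liver lobes had been removed. The groups compared here were the regenerating livers taken 8 h after surgery and those taken 3 h after surgery, both immunoprecipitated with a Pol II antibody, and the lobes removed at surgery gave the 0 h level. Each time point was 1 sample made from the livers of 5 mice, and whether those livers were pooled before sequencing is not stated. With 1 library per time there are no replicates, so no value below has a replicate error and no difference was tested.

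Pol II transcribes protein-coding genes, and its density along a gene body follows how much of the gene is being transcribed at that moment. Within minutes to hours of hepatectomy, hepatocytes switch on immediate early genes, whose products are mostly transcription factors, under signals from growth factors, stress kinases and cytokines. IL-6 acts through the factor STAT3 to induce the acute phase genes, a set of secreted plasma proteins, and also induces SOCS proteins, which shut the same pathway down.

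The signal is the authors' signed value per gene, divided here by the measured width of the gene body, and every library was rescaled on the genes above 0.5 in all 8 Pol II libraries. Changes are 8 h minus 3 h on the log2(signal + 0.5) scale, with values below 0 set to 0, so a change of 1 is a 2-fold difference for a high gene and understates the difference for a low one. A gene is said to have fallen or risen when this change was 1 or more in size, and to have been kept when it was smaller. All signals are given per bp, and positions of genes are in the build mm9, as the files give them. The 8 h file summed to a positive signal and had 41.2% of its entries below 0, whereas the 3 h file summed to a negative signal and had 50.6% below 0. No other file had more than 44.3% below 0. With a background level set per library, 916 genes fell and 544 rose, against 744 and 760 without it. The part of the difference between the 2 files in any single result was not tested. Read counts are not in the files, and the depth of each library is therefore unknown.

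The tissue carried the markers of liver. All 10 hepatocyte markers were members, and their signals, with values below 0 taken as 0, summed to 692.9 at 8 h and 1008 at 3 h. Apoa1 alone made up 280.3 of that sum at 8 h and 649 at 3 h; 5 of the 10 markers rose and 1 fell, with a median change of 0.83. Of 11 measured Kupffer cell and macrophage markers 4 were members, and their list summed to 6.41 at 8 h and 5.002 at 3 h. The 2 endothelial members, Clec4g and Stab1, had 1.89 against 3.08 and 0.569 against 1.08 at 8 h against 3 h, and the 2 stellate cell members, Vim and Tagln, had 0.179 against 0.778 and 3.25 against 2.99. No marker of neutrophils, lymphocytes, cholangiocytes or erythroid cells exceeded 0.5 in either library. In bulk tissue, fewer cells of a type and less Pol II per cell cannot be told apart.

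Of the 4055 genes, 744 fell between 3 h and 8 h, which is 18.3%, and 760 rose, which is 18.7%. The other 2551 stayed within 1. The median change was -0.04 and the quartiles were -0.74 and 0.74. A fall of 2 or more was found for 142 genes and a rise of 2 or more for 90. Of the 744 falls 280 were of genes with 5 or more at 3 h, and of the 760 rises 73 were of genes with 5 or more at 8 h. Each of these limits is set on the library in which such a gene is high, so nothing is read from these counts. The signal summed over all members was 13855 at 8 h and 22635 at 3 h. A gene that passed the 0.5 limit in 1 library only was bound to differ between them. Among the 2460 genes above 0.5 in both libraries, 381 fell and 146 rose, so that most of the 760 rises belong to genes at or below the limit at 3 h.

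**Figure D1:**
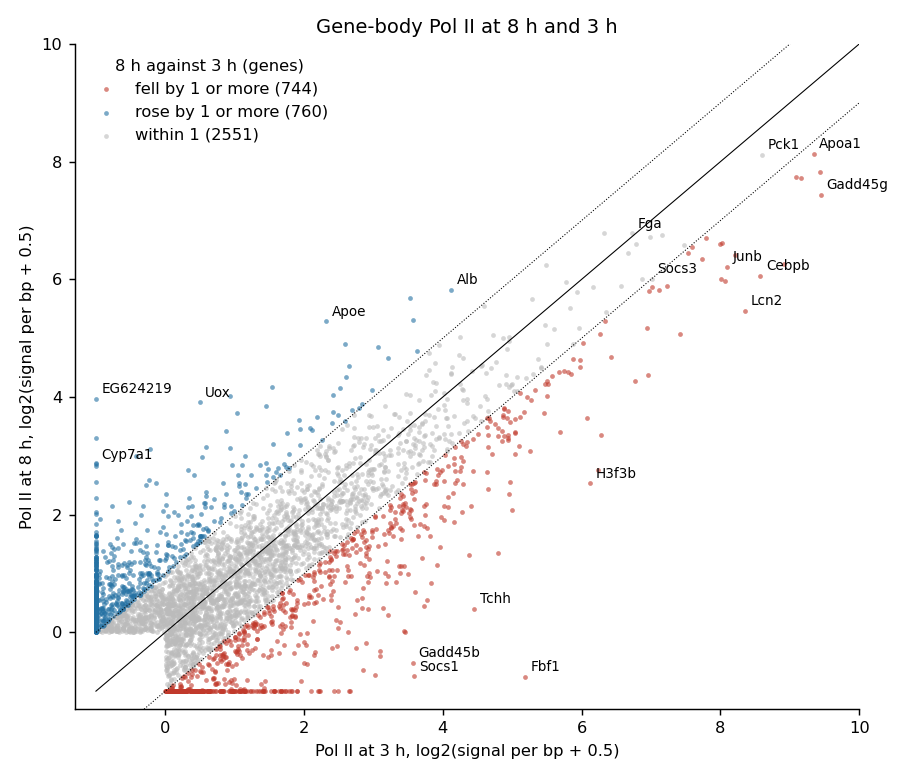
Pol II signal of the 4055 genes at 8 h (vertical axis) against 3 h (horizontal axis), both as log2(signal per bp + 0.5), 1 library each; the solid line marks equal values, the dotted lines a change of 1, and points on the lowest edge of either axis are at or below 0. The 744 genes that fell reach into the highest signals at the right, and the 760 that rose lie mostly at low 3 h signal.

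The genes closest to the limit show how little separates members from non-members. AC139037.2 had -0.422 at 8 h and 0.501 at 3 h, Tgds had 0.434 at 8 h and 0.501 at 3 h and Zfp84 had 0.502 at 8 h and 0.203 at 3 h, just inside. Nhlrc3 with 0.4999 at 8 h and 0.1896 at 3 h, Lats1 with 0.4999 at 8 h and 0.155 at 3 h and Etf1 with 0.499 at 8 h and -0.1799 at 3 h were just outside.

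The step from 3 h to 8 h was the second largest of the course by the share of genes that moved. Counting at each step the genes above 0.5 in either of its libraries, 54.3% changed by 1 or more from 0 to 3 h, 37.1% from 3 to 8 h, and 11.7% from 8 to 16 h. The later steps ranged from 13.7% from 36 to 48 h to 27.3% from 48 to 168 h. Neighbouring steps share a library.

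The first wave, taken as the members with a signal at 3 h higher than at 0 h by 1 or more, held 1001 genes, 24.7% of the members. By 8 h 493 of them had fallen, 500 were kept and 8 had risen further. Of the 493 that fell, 387 were back within 1 of the 0 h level at 8 h, 95 were still above it by 1 or more and 11 were below it by 1 or more. The other 251 falls were of genes outside the first wave. In the opposite direction, 722 members, 17.8%, had a signal at 3 h lower than at 0 h by 1 or more, and by 8 h 385 of them had risen and 323 had stayed within 1. Of the 385, 325 were back within 1 of 0 h. The 3 h library enters both changes of each gene, so a value that is high or low there alone moves a gene into these classes, and nothing is read from the size of the classes.

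The libraries from 16 h on took no part in the classes. The 493 genes that fell had median signals of 0.202, 3.23, 0.570, 0.909, 0.361, 0.981, 0.621 and -0.255 at 0, 3, 8, 16, 24, 36, 48 and 168 h. The 500 kept genes had 0.228, 1.97, 1.56, 1.503, 1.19, 1.44, 1.36 and 0.882 at the same times. The median of the kept genes stayed above its 0 h value in every later library. Both classes were chosen for a 0 h value below that at 3 h, so nothing is read from this. The median of the genes that fell was also above its 0 h value from 8 to 48 h. Over all members the median at 0 h was 1.07. The 385 genes that were low at 3 h and rose had 2.02, 0.0425, 1.403, 1.23, 1.92, 1.46, 1.47 and 2.56. Their dip at 3 h between higher values at 0 h and 8 h was set by the choice of the class. Their later medians were above 1, as were those of all members in every library.

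**Figure D2:**
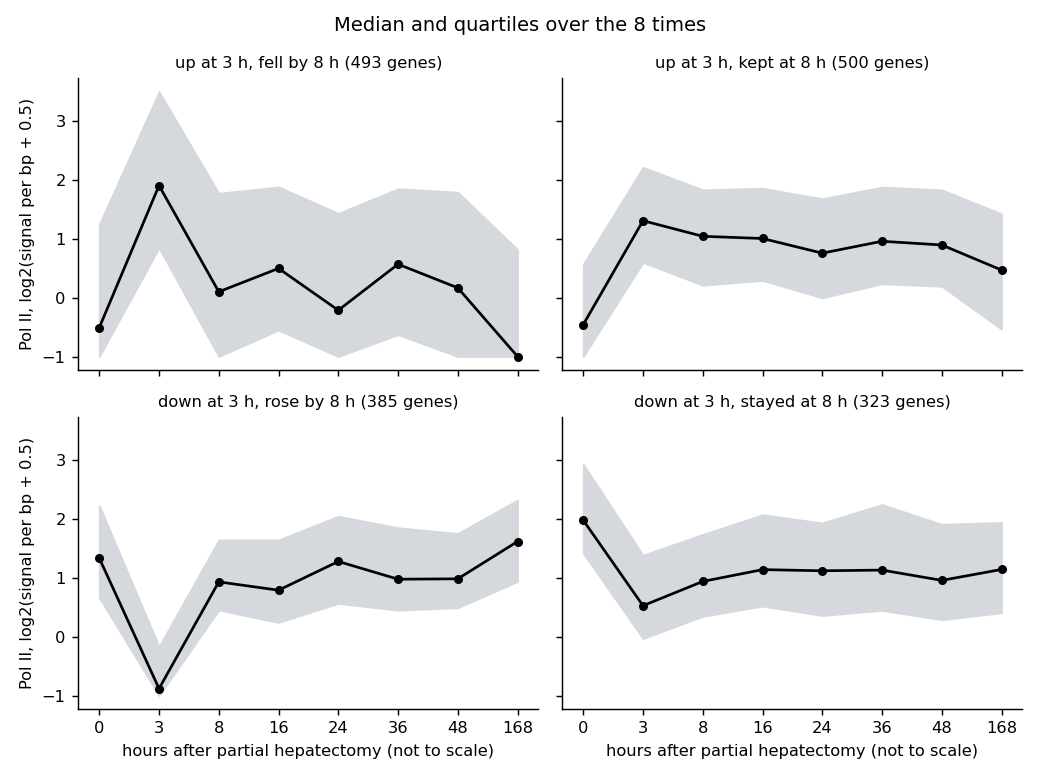
Median (line) and quartiles (grey band) of the Pol II signal, as log2(signal per bp + 0.5) with values below 0 set to 0, at 8 times for 4 classes of members set by their changes from 0 to 3 h and from 3 to 8 h. The 493 genes that fell by 8 h have medians below 1 at every time but 3 h, while the 500 kept genes hold a median of 0.882 to 1.56 from 8 h to 168 h.

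The largest falls among genes with 5 or more at 3 h left almost no signal at 8 h. Fbf1, which encodes a protein of centriole appendages, had 0.0938 at 8 h and 35.9 at 3 h, a change of -5.94. Its signal over the course was 0.0617, 35.9, 0.0938, 1.07, -0.327, 0.662, 0.0646 and -1.11 at 0, 3, 8, 16, 24, 36, 48 and 168 h, so that the 3 h library stood alone. Socs1, the cytokine signalling suppressor, had 0.0961 at 8 h and 11.4 at 3 h, and its course of -1.61, 11.4, 0.0961, -0.422, -2.803, -1.61, -1.49 and -3.54 at 0, 3, 8, 16, 24, 36, 48 and 168 h was again high at 3 h alone. Gadd45b, a stress-induced partner of p38 kinase signalling, had 0.199 at 8 h and 11.3 at 3 h, with 2.46 at 0 h. Tchh, known as a structural protein of hair follicles, had 0.8203 at 8 h and 21.4 at 3 h, with -0.581 at 0 h.

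The other 8 of the 12 largest falls changed by -3.66 to -3.41. H3f3b, which encodes the replacement histone H3.3, had 5.304 at 8 h and 69.4 at 3 h, the highest 3 h level of the 12. Bcl2l1, the gene of the survival protein Bcl-xL, had 2.05 at 8 h and 27.2 at 3 h, and the 8 h value lay below its 10.9 at 0 h. The width measured for Bcl2l1 was only 879 bp. Scd1, the desaturase that makes monounsaturated fatty acids, had 0.1404 at 8 h and 6.72 at 3 h. Arid5a, which encodes an RNA-binding regulator of inflammatory transcripts, had 0.514 at 8 h and 10.3 at 3 h. Ggt6, Gja4, Thop1 and Cdk3 completed the group, with 0.503 or less at 8 h and 5.102 to 10.4 at 3 h.

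**Figure D3:**
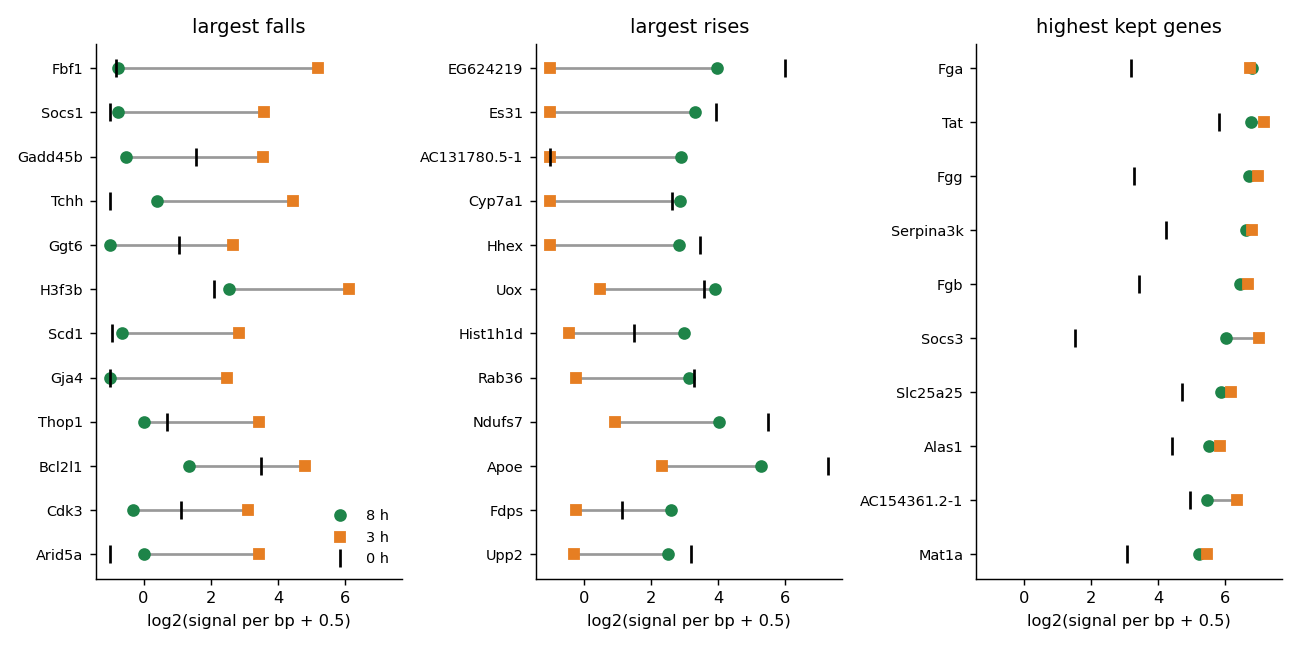
Pol II signal at 8 h (green circles), 3 h (orange squares) and 0 h (black ticks), as log2(signal per bp + 0.5), for the 12 largest falls, the 12 largest rises and the 10 highest kept genes of the first wave. Most of the falls end near the 0 h level or below it, most of the rises start from a 3 h value near the floor, and the kept genes lie to the right of their 0 h ticks at both times.

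The promoters of the 4 largest falls are shown from 250 bases before the start to 50 after it, so that the letters near the start can be set beside the values (RefSeq, GRCm38.p6, 5′ to 3′). Capitals mark matches to short motifs searched on both strands: a C/EBP site TTGCNNAA, a STAT site TTCNNNGAA, the CCAAT box, the GC box GGGCGG, the E-box CACGTG, the TATA box TATAAA and an Egr site GCGNGGGCG. Those of Fbf1 (chr11:116168129-116168428, minus strand), Socs1 (chr16:10785487-10785786, minus strand), Gadd45b (chr10:80929841-80930140, plus strand) and Tchh (chr3:93442080-93442379, plus strand) read as follows.
Fbf1: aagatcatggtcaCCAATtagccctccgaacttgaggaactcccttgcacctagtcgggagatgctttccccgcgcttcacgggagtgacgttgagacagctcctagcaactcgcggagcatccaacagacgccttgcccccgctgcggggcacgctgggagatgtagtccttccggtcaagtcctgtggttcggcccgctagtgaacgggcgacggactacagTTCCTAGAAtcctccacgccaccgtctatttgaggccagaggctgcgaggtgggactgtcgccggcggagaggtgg
Socs1: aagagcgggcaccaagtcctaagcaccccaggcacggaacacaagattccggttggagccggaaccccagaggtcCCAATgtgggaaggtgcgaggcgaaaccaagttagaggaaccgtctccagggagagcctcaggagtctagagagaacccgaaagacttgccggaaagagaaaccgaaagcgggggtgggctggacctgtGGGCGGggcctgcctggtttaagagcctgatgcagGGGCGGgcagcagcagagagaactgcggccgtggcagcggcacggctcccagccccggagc
Gadd45b: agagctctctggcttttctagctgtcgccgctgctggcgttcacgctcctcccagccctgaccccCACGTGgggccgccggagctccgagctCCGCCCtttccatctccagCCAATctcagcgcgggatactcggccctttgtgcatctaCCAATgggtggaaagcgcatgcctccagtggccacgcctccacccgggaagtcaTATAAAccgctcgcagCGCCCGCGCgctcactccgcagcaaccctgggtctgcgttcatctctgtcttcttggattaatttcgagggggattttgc
Tchh: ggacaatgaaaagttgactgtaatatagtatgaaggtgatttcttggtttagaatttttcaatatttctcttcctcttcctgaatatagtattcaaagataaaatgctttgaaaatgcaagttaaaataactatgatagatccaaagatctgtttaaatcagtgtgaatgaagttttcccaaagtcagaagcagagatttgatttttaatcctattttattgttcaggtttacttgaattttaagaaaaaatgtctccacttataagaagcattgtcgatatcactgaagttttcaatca

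Fbf1 held a STAT match 26 to 18 bases before the start, and Socs1 held 2 GC boxes and a CCAAT box. Gadd45b held a TATA box 46 to 41 bases before the start, an Egr match, an E-box, 2 CCAAT boxes and a GC box. Tchh held no match to any motif searched. A match is only a string of letters in this window.

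Most of the immediate early genes fell. Among the AP-1 and ATF genes, which encode the factors that pair on AP-1 and related sites, 8 of 10 measured genes were members, 7 fell and 0 rose, with a median of -1.77 against -0.04 over all members. Only 4 of the 8 were in the first wave, and 3 of those fell. Above 0.5 in both libraries were 4 of the 8, of which 3 fell; the other 4 falls were of genes that passed the limit at 3 h alone. Junb, the highest of them, had 73.6 at 8 h and 272 at 3 h, and its 74.6 at 0 h was close to the 8 h value. Jun had 7.99 at 8 h and 37.6 at 3 h, with 46.8 at 0 h, and Maff had -0.313 at 8 h and 2.47 at 3 h, with 3.401 at 0 h, so that both ended well below the 0 h level. Fos had 0.478 at 8 h and 3.33 at 3 h. Fosl2 changed by -0.97, just short of the 1 that counts as a fall.

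Of the other immediate early genes, 16 of 21 were members, 10 fell and 0 rose, with a median of -1.09. The first wave held 8 of the 16, of which 6 fell. Among the 14 above 0.5 in both libraries 8 fell, and with 2 added to the signals in place of 0.5 the list had 6 falls. Zfp36, whose product destabilises inflammatory mRNAs, had 84.97 at 8 h and 297 at 3 h, against 166 at 0 h. Egr1, the zinc finger factor of the early growth response, had 12.7 at 8 h and 43.4 at 3 h, and Myc had 2.05 at 8 h and 6.92 at 3 h. Klf2 changed by -2.47 and Csrnp1, listed under its older name Axud1, by -2.01. Errfi1, which encodes an inhibitor of the EGF receptor, went the other way, with 75.7 at 8 h and 44.1 at 3 h and a change of 0.77. Of 13 measured MAPK phosphatase and Sprouty genes, brakes of growth factor signalling, 2 were members and both fell. Dusp1 had 18.2 at 8 h and 45.2 at 3 h, and Dusp6 had 1.44 at 8 h and 5.86 at 3 h. Neither was in the first wave, with 24.9 for Dusp1 and 9.62 for Dusp6 at 0 h.

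Most members of the Gadd45 and p53 stress list fell, and Gadd45b was among the 12 largest falls. Of 11 measured genes 8 were members, of which 5 fell and 1 rose, with a median of -1.85. Among the 6 above 0.5 in both libraries 4 fell. Gadd45g had 173 at 8 h and 701 at 3 h, and its course was 9.22, 701, 173, 99.01, 74.8, 53.7, 133 and 3.81 at 0, 3, 8, 16, 24, 36, 48 and 168 h, so it remained above 0 h up to 48 h and was below it at 168 h. Ddit4, an inhibitor of mTORC1, had 9.74 at 8 h and 77.5 at 3 h, with 2.15 at 0 h. Cdkn1a, the p21 inhibitor of the cell cycle, had 1.89 at 8 h and 7.11 at 3 h, against 1.84 at 0 h, over a measured width of 862 bp. Trp53inp1 was the riser, with 0.6002 at 8 h and -0.0647 at 3 h.

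In the IL-6 and STAT3 pathway the IL-6 receptor subunits and Stat3 stayed within 1 while Socs1, Socs2 and the Pim kinases fell. Of 19 measured genes 15 were members, of which 7 fell and 1 rose, with a median of -0.999. Among the 12 above 0.5 in both libraries 5 fell and 0 rose, and with 2 added the list had 3 falls. Among the SOCS genes, Socs1 was near 0 at 8 h, Socs2 had 0.404 at 8 h and 2.55 at 3 h, and Socs3 had 63.9 at 8 h and 128 at 3 h. The course of Socs3 was 2.38, 128, 63.9, 41.2, 24.2, 21.3, 50.9 and 17.9 at 0, 3, 8, 16, 24, 36, 48 and 168 h, and its change of -0.999 was just short of the count of falls. The kinase genes Pim3 and Pim1 had 33.1 against 171 and 4.05 against 10.2 at 8 h against 3 h. The receptor subunit genes Il6ra and Il6st changed by -0.49 and 0.26, and Stat3 itself by -0.08. Lifr, the receptor of leukaemia inhibitory factor, was the riser, with 1.67 at 8 h and 0.3902 at 3 h.

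Of the C/EBP genes, whose products bind at many liver promoters, Cebpb fell and Cebpa did not. Cebpb had 66.2 at 8 h and 381 at 3 h, and its course was 56.5, 381, 66.2, 83.8, 14.2, 77.2, 40.5 and 13.9 at 0, 3, 8, 16, 24, 36, 48 and 168 h. Cebpa had 17.04 at 8 h and 18.9 at 3 h, against 93.2 at 0 h, and stayed low at 8 h. Cebpg and Ddit3, the second of which overlaps Mars, changed by 0.83 and 0.42.

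Of 11 measured glucocorticoid targets 9 were members, of which 2 fell: Igfbp1, an IGF-binding protein, with 63.7 at 8 h and 256 at 3 h, and Fkbp5, a co-chaperone of the receptor, with 1.05 at 8 h and 3.69 at 3 h. Pck1, the gluconeogenic enzyme, had 277 at 8 h and 388 at 3 h, with 216 at 0 h, one of the highest signals in both libraries. Irs2, an adaptor of the insulin receptor, had 11.99 at 8 h and 66.7 at 3 h and led the falls of the growth hormone and IGF list, in which 3 of 14 members fell and 4 rose. Of its 8 members above 0.5 in both libraries 2 fell and 2 rose. Igf1 was its largest rise, with 3.86 at 8 h and 0.751 at 3 h.

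The secreted acute phase proteins were nearly all part of the first wave and then parted. Of 29 measured genes 25 were members, of which 21 were in the first wave. Between 3 h and 8 h 13 fell, 2 rose and 10 were within 1, with a median of -1.09; 24 of the members were above 0.5 in both libraries, with 13 falls and 1 rise. Lcn2, an iron-siderophore binding protein, had 43.8 at 8 h and 326 at 3 h, a change of -2.88. Hp, haptoglobin, had 226 at 8 h and 694 at 3 h, and Itih4 had 62.0 at 8 h and 268 at 3 h. Saa1, Saa2 and Saa3, the serum amyloids, had 81.1 against 212, 96.5 against 254 and 0.836 against 6.604 at 8 h against 3 h. Saa1, Saa2 and Lcn2 were below 0 at 0 h, so these 3 were still far above their resting level at 8 h. Saa1 and Saa2 are close copies, and how the authors placed reads that fit both is unknown.

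The fibrinogen genes, which encode the 3 chains of the clotting protein, were kept. Fga had 109.7 at 8 h and 106 at 3 h, Fgb had 86.8 at 8 h and 101 at 3 h and Fgg had 105 at 8 h and 126 at 3 h, with changes of 0.05, -0.22 and -0.26. The course of Fga was 8.59, 106, 109.7, 87.0, 55.3, 39.1, 113 and 16.3 at 0, 3, 8, 16, 24, 36, 48 and 168 h, so it stayed above the 0 h value in every later library. Serpina3k, a serine protease inhibitor, had 97.1 at 8 h and 109.6 at 3 h; its body overlaps that of Serpina3m, and the 2 cannot be told apart in ChIP. Cp, ceruloplasmin, was among the rises, with 2.83 at 8 h and 0.331 at 3 h. Hamp, hepcidin, listed as Hamp1, had 50.4 at 8 h and 38.5 at 3 h.

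The 10 highest kept genes of the first wave also held Tat, the tyrosine aminotransferase, with 108 at 8 h and 142 at 3 h. Mat1a, which makes S-adenosylmethionine, had 36.9 at 8 h and 43.8 at 3 h, against 8.005 at 0 h. Alas1, the first enzyme of haem synthesis, had 45.1 at 8 h and 56.5 at 3 h, and Slc25a25, a mitochondrial carrier, had 57.8 at 8 h and 70.8 at 3 h. AC154361.2-1, an entry named for its clone, had 42.99 at 8 h and 80.9 at 3 h.

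The promoters of the 3 kept genes with the highest 8 h signal follow, with the same capitals: Fga (chr3:83025903-83026202, plus strand), Tat (chr8:109990186-109990485, plus strand) and Fgg (chr3:83007474-83007773, plus strand).
Fga: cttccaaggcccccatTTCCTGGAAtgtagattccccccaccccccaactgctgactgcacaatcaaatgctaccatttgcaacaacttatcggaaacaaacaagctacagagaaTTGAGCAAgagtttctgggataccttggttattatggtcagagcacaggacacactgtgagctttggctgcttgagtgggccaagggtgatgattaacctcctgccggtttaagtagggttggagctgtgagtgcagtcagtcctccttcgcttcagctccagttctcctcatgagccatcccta
Tat: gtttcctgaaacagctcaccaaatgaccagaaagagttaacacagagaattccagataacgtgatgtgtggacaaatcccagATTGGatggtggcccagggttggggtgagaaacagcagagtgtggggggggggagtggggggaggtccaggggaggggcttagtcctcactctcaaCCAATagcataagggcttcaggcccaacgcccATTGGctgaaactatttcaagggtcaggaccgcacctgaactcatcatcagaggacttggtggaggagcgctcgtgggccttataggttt
Fgg: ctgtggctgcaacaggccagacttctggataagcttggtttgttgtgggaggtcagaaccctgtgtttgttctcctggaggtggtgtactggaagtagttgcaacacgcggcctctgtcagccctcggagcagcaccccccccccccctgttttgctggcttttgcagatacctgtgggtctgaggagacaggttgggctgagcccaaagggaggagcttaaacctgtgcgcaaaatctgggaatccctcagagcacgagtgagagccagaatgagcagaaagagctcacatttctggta

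Fga held a C/EBP match 135 to 128 bases before the start and a STAT match 234 to 226 bases before it. In the deposited C/EBPbeta lists the nearest region centre lay 137 bp from the start of Fga at 8 h and 132 bp at 3 h. In the C/EBPalpha lists it lay 149 bp away at 8 h and 137 bp at 3 h. For these distances the start in mm9 was placed 500 bp before the measured body, an offset inferred from the values. Tat held 3 CCAAT boxes and Fgg held no match. For Fgg the nearest C/EBPbeta region was 361 bp away at 8 h and 334 bp at 3 h.

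Most of the largest rises were of genes that had been near 0 at 3 h, liver genes among them. EG624219, the older name of Angptl8, a secreted regulator of triglyceride uptake, had 15.2 at 8 h and -0.2104 at 3 h, and its course was 63.8, -0.2104, 15.2, 27.7, 32.4, 30.8, 17.9 and 36.02 at 0, 3, 8, 16, 24, 36, 48 and 168 h. It lies within Dock6, which had 3.12 at 8 h and 1.403 at 3 h, and the reads of the 2 cannot be told apart. Cyp7a1, the rate-limiting enzyme of bile acid synthesis, had 6.77 at 8 h and -0.449 at 3 h, with a course of 5.64, -0.449, 6.77, 1.03, 3.72, 5.801, 4.96 and 25.03 at 0, 3, 8, 16, 24, 36, 48 and 168 h. Hhex, a homeobox factor of liver development, had 6.59 at 8 h and -0.394 at 3 h, and Uox, urate oxidase, had 14.6 at 8 h and 0.908 at 3 h. Apoe, the apolipoprotein of remnant particles, had 38.4 at 8 h and 4.498 at 3 h, still far below its 156 at 0 h.

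The remaining names among the 12 largest rises were Es31, AC131780.5-1, Hist1h1d, Rab36, Ndufs7, Fdps and Upp2. Es31, an older esterase name that more than 1 current gene carries, had 9.39 at 8 h and -0.502 at 3 h. Hist1h1d, now called H1f3, encodes a linker histone and had 7.45 at 8 h and 0.245 at 3 h, against 2.35 at 0 h. Ndufs7, a subunit of respiratory complex I, had 15.8 at 8 h and 1.401 at 3 h, with 44.7 at 0 h. Upp2, a uridine phosphorylase, had 5.19 at 8 h and 0.325 at 3 h. AC131780.5-1, at chr9:3001570-3002330, had -7.09, -8.697, 6.88, -5.71, -1.72, 3.64, -3.88 and 30.8 at 0, 3, 8, 16, 24, 36, 48 and 168 h, a course that jumps between strongly negative and positive values.

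The promoter of Angptl8 (chr9:21835260-21835559, plus strand), the gene of the largest rise, held a C/EBP match 100 to 93 bases before the start.
Angptl8: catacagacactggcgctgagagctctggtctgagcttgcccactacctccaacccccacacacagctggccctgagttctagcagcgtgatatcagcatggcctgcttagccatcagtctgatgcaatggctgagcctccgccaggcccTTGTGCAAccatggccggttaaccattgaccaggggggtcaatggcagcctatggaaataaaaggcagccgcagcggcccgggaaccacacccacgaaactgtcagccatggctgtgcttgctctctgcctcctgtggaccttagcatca
The nearest C/EBPbeta region centre lay 128 bp from its start at 8 h and 131 bp at 3 h, and the nearest C/EBPalpha region 46 bp at 8 h and 106 bp at 3 h.

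Cholesterol synthesis and uptake genes that were at or below 0.5 at 3 h made up most of the rises of their list. Of 22 measured genes 17 were members, of which 12 rose and 0 fell, with a median of 1.22. Fdps, which makes farnesyl diphosphate, had 5.52 at 8 h and 0.348 at 3 h. Sqle, the squalene epoxidase, had 1.703 at 8 h and 0.146 at 3 h. Insig1, the sterol-sensing retention protein, had 6.66 at 8 h and 1.66 at 3 h. Only 6 of the members were above 0.5 in both libraries; of those 2 rose, with a median of 0.51, so 10 of the 12 rises were of genes that passed the limit at 8 h alone. With 2 added, 4 of the 17 rose.

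Several bile acid genes rose. Of 19 measured genes 14 were members, of which 8 rose and 0 fell, with a median of 1.19. Beside Cyp7a1, the rises included the uptake transporters Slc10a1, with 5.92 at 8 h and 1.56 at 3 h, and Slco1b2, with 1.86 at 8 h and -0.316 at 3 h, and the canalicular pump Abcc2, with 4.01 at 8 h and 0.509 at 3 h. Cyp8b1, the sterol 12-alpha-hydroxylase, had 7.12 at 8 h and 8.41 at 3 h, against 70.1 at 0 h, and so did not come back. Among the 10 members above 0.5 in both libraries 4 rose, with a median of 0.33, and with 2 added the list had 3 rises.

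Of 29 measured cytochrome P450 and phase II genes 17 were members, of which 11 rose and 1 fell, with a median of 1.15. Gsta3, a glutathione transferase, had 5.33 at 8 h and 0.413 at 3 h, and Cyp3a25 had 2.19 at 8 h and -0.145 at 3 h. Cyp2e1, the ethanol-oxidising P450, had 31.8 at 8 h and 18.6 at 3 h, against 47.4 at 0 h. Sult1a1, a sulfotransferase, was the fall, with 6.21 at 8 h and 21.1 at 3 h. Above 0.5 in both libraries were 10 of these genes, of which 4 rose and 1 fell, and with 2 added the list had 5 rises and 1 fall.

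Most genes of albumin, plasma transport and apolipoproteins rose. Of 23 measured genes 21 were members, of which 14 rose and 4 fell, with a median of 1.32. Above 0.5 in both libraries were 20, of which 13 rose, with a median of 1.25. Alb had 56.2 at 8 h and 16.9 at 3 h, Ttr, transthyretin, had 17.6 at 8 h and 2.39 at 3 h, Rbp4, the retinol carrier, had 22.6 at 8 h and 5.79 at 3 h, and Apob had 9.93 at 8 h and 2.87 at 3 h.

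The apolipoproteins parted by locus. Apoe, Apoc1, Apoc2 and Apoc4, which are neighbours on chromosome 7, rose by 1.32 to 2.96. Apoa1, Apoa4 and Apoa5, neighbours on chromosome 9, fell by 1.21 to 1.42, and Apoc3 of the same locus changed by -0.696. Apoa1 had 280.3 at 8 h and 649 at 3 h and Apoa5 had 213 at 8 h and 541 at 3 h. Genes of 1 locus share their surroundings and are not separate observations.

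Coagulation and complement genes other than the fibrinogens rose mainly where the 3 h signal was at or below 0.5. Of 29 measured genes 25 were members, of which 13 rose and 3 fell, with a median of 1.06. Mbl2, a lectin of the complement system, had 1.93 at 8 h and -0.0653 at 3 h, and F11, coagulation factor XI, had 1.28 at 8 h and -0.199 at 3 h. Masp2, a complement-activating protease, fell, with 16.8 at 8 h and 39.5 at 3 h over a measured width of 1225 bp. Among the 14 above 0.5 in both libraries 3 rose and 3 fell, with a median of 0.27. With 2 added, 1 of the 25 rose and 1 fell.

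Glucose genes moved in both directions. Of 20 measured genes 17 were members, of which 8 rose and 2 fell, with a median of 0.54. Among the 12 above 0.5 in both libraries 3 rose and 2 fell, and with 2 added the list had 4 rises and 2 falls. Pklr, the pyruvate kinase of liver, had 3.65 at 8 h and -0.387 at 3 h. Slc2a2, the GLUT2 transporter, had 2.62 at 8 h and -0.130 at 3 h, and G6pc, which releases glucose from its phosphate, had 19.7 at 8 h and 5.59 at 3 h. The body of Pklr overlaps Hcn3 and that of Pcx overlaps Lrfn4, and such pairs cannot be told apart. The falls were Pcx, pyruvate carboxylase, with 2.498 at 8 h and 9.99 at 3 h, and Pfkfb3, a regulator of glycolysis, with 1.699 at 8 h and 6.78 at 3 h.

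Fatty acid genes fell and rose in shares near those of all members, 18.3% and 18.7%. Of 19 measured synthesis genes 12 were members, of which 3 fell and 3 rose. Thrsp, a lipogenic regulator, had 3.72 at 8 h and 31.3 at 3 h and Acacb, an acetyl-CoA carboxylase, had -0.0421 at 8 h and 1.56 at 3 h, whereas Acly, ATP citrate lyase, had 1.91 at 8 h and -0.211 at 3 h. Of 20 measured oxidation genes 10 were members, of which 1 fell and 2 rose, among the rises Acadm, a mitochondrial acyl-CoA dehydrogenase, with 1.096 at 8 h and 0.285 at 3 h.

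Of 32 measured urea cycle and amino acid genes 31 were members, of which 8 rose and 3 fell, with a median of 0.14; among the 28 above 0.5 in both libraries 5 rose and 3 fell. Cps1, the first urea cycle enzyme, had 10.2 at 8 h and 1.34 at 3 h, and its later neighbours in the cycle Ass1 and Asl had 22.6 against 23.02 and 18.2 against 18.5 at 8 h against 3 h. Sds and Sdsl, serine dehydratases, fell, with 16.2 against 34.2 and 2.28 against 7.13.

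**Figure D4:**
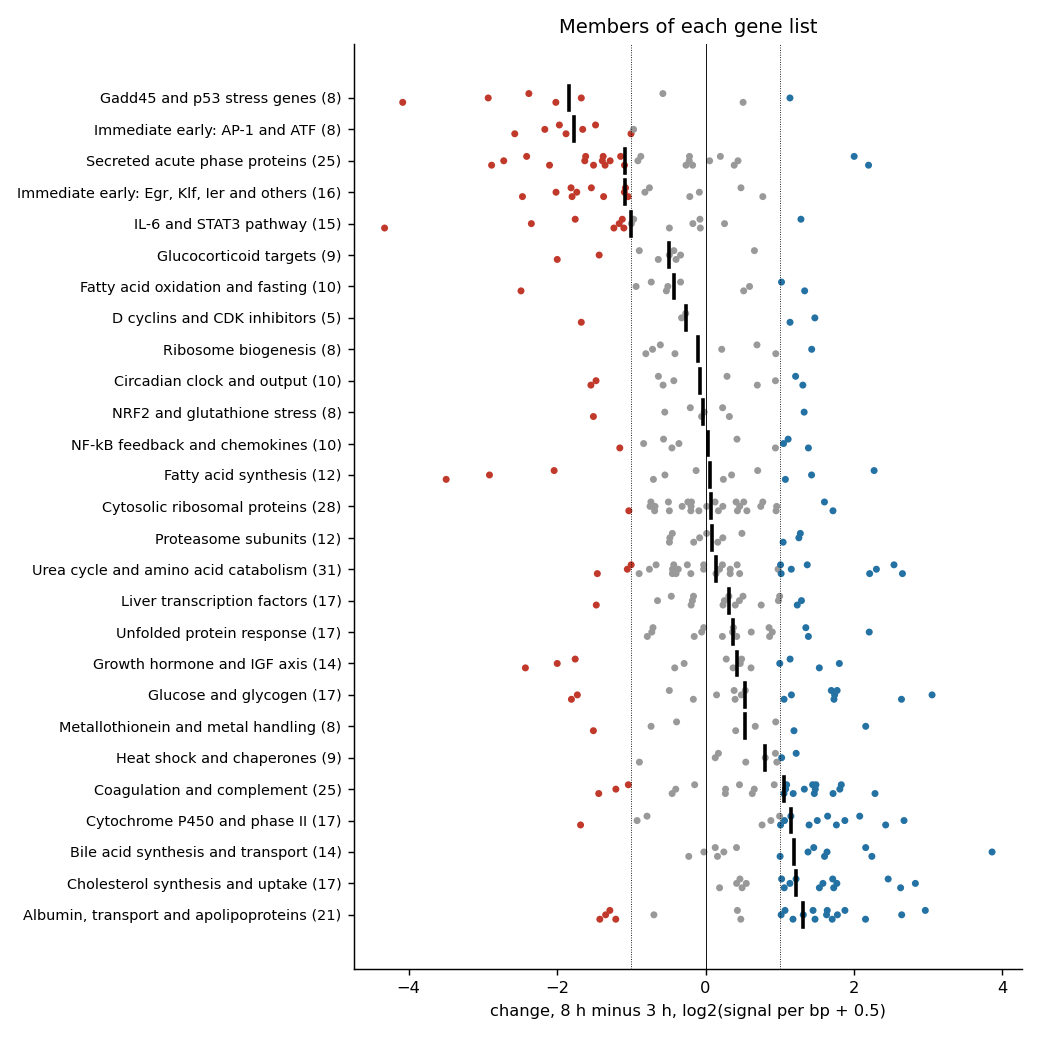
Change from 3 h to 8 h, as log2(signal per bp + 0.5), of every member (point) of the gene lists with 5 or more members, with the number of members in brackets; black bars are medians, red and blue points fell or rose by 1 or more. Stress, immediate early and acute phase lists have medians to the left of 0, and the lists of cholesterol, bile acid, P450, albumin and coagulation genes to the right.

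The ribosomal protein genes stayed near the median of all members. Of 29 measured cytosolic ribosomal protein genes 28 were members, of which 1 fell and 2 rose, with a median of 0.07. Of 20 measured liver transcription factor genes 17 were members, of which 1 fell, Foxa2 with 0.263 at 8 h and 1.62 at 3 h, and 2 rose, while Hnf4a had 11.2 at 8 h and 12.5 at 3 h. Unfolded protein response genes had 3 rises and 0 falls among 17 members, led by the chaperone genes Pdia4, with 1.81 at 8 h and -0.326 at 3 h, and Hsp90b1, with 5.27 at 8 h and 1.71 at 3 h. Of these 3 rises 1 was among the 14 members above 0.5 in both libraries. Heat shock genes had 2 rises and 0 falls among 9 members, with a median of 0.805; both rises were of genes that passed the limit at 8 h alone, and the 4 members above 0.5 in both libraries had 0 rises and a median of 0.15.

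Of the inflammatory NF-kB targets, 10 of 21 were members, 1 fell and 3 rose, and none of the 5 above 0.5 in both libraries did either. Cxcl1, a neutrophil chemokine, had 29.1 at 8 h and 14.9 at 3 h, and Nfkbia, the feedback inhibitor, had 7.51 at 8 h and 13.8 at 3 h. Of the 8 members that handle metals 1 fell and 2 rose: Trf, transferrin, rose, with 50.9 at 8 h and 11.01 at 3 h, and Hmox1, haem oxygenase, fell, with 2.16 at 8 h and 7.09 at 3 h. Among 10 clock genes 2 fell and 2 rose: Nr1d1, the repressor REV-ERB alpha, rose, with 12.5 at 8 h and 5.11 at 3 h, and Nfil3 fell, with 3.601 at 8 h and 10.9 at 3 h.

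Few cell cycle genes carried readable Pol II this early. Of 34 measured replication and G1/S genes, 3 were members and none changed by 1. Of 20 measured mitosis genes, 1 was a member, Cdc20, with 1.09 at 8 h and -0.0495 at 3 h. Among 5 members of the D cyclin and CDK inhibitor list 1 fell and 2 rose. Ccnd1, cyclin D1, had 2.61 at 8 h and 0.914 at 3 h, against 3.28 at 0 h. The other riser, Cdkn1b, had 0.888 at 8 h and -0.086 at 3 h, against 1.68 at 0 h. Ribosome biogenesis, proteasome, interferon, polyamine and NRF2 lists had 8, 12, 3, 3 and 8 members, of which 0, 0, 0, 0 and 1 fell and 1, 3, 0, 0 and 1 rose.

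Genes that lie beside a strong fall were also looked at. Among 56 genes that fell from 30 or more at 3 h, 47 had a measured neighbour within 30 kb past their end. Of these neighbours 19 fell, against 3.52% of all measured genes, and 26 were members. Before the start there were 49 such neighbours, of which 33 were members and 17 fell. Lrg1 is an acute phase glycoprotein gene and had 76.3 at 8 h and 485 at 3 h. Sema6b lay before its start, on the same strand, and had 2.98 at 8 h and 12.7 at 3 h. C3 was followed by Tnfsf14, with 0.814 at 8 h and 7.05 at 3 h. Signal of 1 gene that runs on past its end cannot be told apart from signal of the next gene in a value per gene body. Some neighbours belong to more than 1 of the 56 genes, and the 56 themselves include neighbours of each other.

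The share of genes that fell was not even over gene length. In the first of 4 equal groups by measured width, 501 to 3191 bp, 29.4% fell and 15.7% rose. In the fourth, 16658 to 510219 bp, 10.7% fell and 24.4% rose. The median body was 4567 bp for genes that fell, 10027 bp for those that rose and 7557 bp for all members. Signal level moves with width: the median of the higher of both libraries was 2.39 in the first group and 1.104 in the fourth, and the part of level in the difference was not tested.

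The binding lists of C/EBPbeta and C/EBPalpha were set beside the changes. Within 1 kb of the start, at 31003 top-scoring regions per list, a C/EBPbeta region of the 8 h list was found for 26.3% of the genes that fell, 38.6% of those that rose and 33.7% of all members. In the 3 h list the shares were 44.9%, 52.6% and 49.2%. Within 10 kb the order held in the 8 h list, with 64.5%, 74.5% and 71.1%, but not in the 3 h list, with 78.4%, 76.1% and 79.6%. For C/EBPalpha the shares within 1 kb were 21.2%, 33.3% and 27.5% at 8 h and 28.8%, 39.5% and 36.3% at 3 h. Among the 385 genes low at 3 h that rose, 41.8% had a C/EBPbeta region within 1 kb at 8 h and 55.8% at 3 h. Within 1 kb of an Egr1 peak of the 36 h list lay 3.09% of the genes that fell, 8.42% of those that rose and 3.80% of all members. These shares are descriptions of lists made in 1 library each and were not tested.

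Promoter letters were counted for the 2382 members matched to exactly 1 promoter of the RefSeq table, which holds 32851 in all. The C/EBP motif was found in 16.1% of 217 promoters of genes that were low at 3 h and rose, in 9.19% of all members and in 10.8% of all promoters. The TATA box was found in 12.4% of 290 promoters of first wave genes that fell, in 5.88% of 289 promoters of those that were kept, in 9.74% of all members and in 13.6% of all promoters. The STAT motif had 8.62% in the first wave genes that fell, 4.498% in those kept, 6.47% in all members and 8.298% in all promoters. The cAMP response element TGACGTCA had 4.83%, 5.19%, 2.94% and 1.79% in the same order, and 0.461% in the genes that were low at 3 h and rose, which is 1 promoter. Motifs were searched on both strands, and the other motifs counted were AP-1 TGANTCA, a looser TGACGNCA that includes the previous one, HNF4 CAAAGTCCA, the heat shock element GAANNTTC, the NF-kB site and the CArG box.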

How the data were processed

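Pol II ChIP-seq files of 8 times were used, 1 library each, with the C/EBP region lists of 8 h and 3 h and the Egr1 list of 36 h; the mock immunoprecipitation was not analysed here. Groups came from the sample titles. The submitters' processing notes name Bowtie 0.12.7, MACS 1.4.1 and mm9, with no role or order. The Pol II score deposited by the authors is a signed signal per gene that, from its values, covers the body from about 500 bp past the start; how it was normalized is unknown from the labels and headers. The deposited scores of the C/EBP and Egr1 regions served only to rank regions within a list.

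Signal per bp is the deposited value over the measured width. Of 31804 entries 10671 were not used, because the width was under 500 bp, the name was repeated or the end lay before the start (6603). Libraries were rescaled by the median ratio over 1472 genes above 0.5 in all 8 files, and all changes are set against these genes. The log2 was taken of the signal, floored at 0, plus 0.5. Overlapping genes, 435 of the 4055, cannot be told apart. Of the 4055 names 3325 were current RefSeq symbols and 467 older names. Region counts used 1 kb or 10 kb from a start placed 500 bp before the measured body. Promoter counts used a window of 250 bases before to 50 after the RefSeq start.

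Named genes are the 12 largest falls with 5 or more at 3 h, the 12 largest rises with 5 or more at 8 h, the 10 highest kept genes of the first wave, the highest and the 2 most changed in each direction of each of the 33 gene lists, and the 3 on each side of the limit; other list members were chosen as examples after their values were seen. The members and lists were chosen with earlier results of these data known. The scoring was tested on simulated data. Alternatives changed the added constant, filter, scaling, background level, width and overlaps. Python 3.11.15, pandas 2.3.3 and numpy 2.4.6 were used.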

Additional observations from a re-analysis of the deposited data

How the results depend on the processing

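Each alternative changed 1 choice. With 2 added in place of 0.5, 280 genes fell and 101 rose, and 203 of the first wave fell. Among genes above 0.5 in both libraries 381 fell and 146 rose, and with a limit of 2 in either library 433 fell and 196 rose. Under these 3 settings the count of rises dropped by more than that of falls. Under the other alternatives the counts stayed within 1.5 times: 580 to 961 genes fell and 544 to 1058 rose. Setting a background level per library gave 916 falls and 544 rises, so that 62.7% of the changed genes fell, against 49.5% in the text. Scaling on the 3 h and 8 h files alone moved the median change to 0.16, with 601 falls and 908 rises. Of the 37 list medians and the 173 named genes, none that had changed by 1 or more turned its direction under the 5 alternatives of constant, scaling and background. The medians of the NF-kB, ribosome biogenesis, ribosomal protein, proteasome, clock, fatty acid synthesis, NRF2 and Kupffer cell lists, all within 0.1 of 0, changed sign under at least 1 of them. With 2 added, 36 named genes and 7 list medians no longer reached 1. Those medians were the rises of the P450, bile acid, cholesterol, albumin, coagulation and mitosis lists and the fall of the other immediate early genes. A background level per library also took the P450, cholesterol and coagulation medians below 1. Scaling on the 3 h and 8 h files alone did so for the falls of the other immediate early and acute phase lists. No paired analysis was possible because each time has 1 library; for the same reason neither library could be left out. The 3 h library is 1 side of every value, and depth is unknown.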
